A study of Macaca mulatta with 6 samples.

Results

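The genes described here encode neuropeptides of the cerebral cortex other than the opioid peptides, together with the protein that binds corticotropin-releasing hormone. They were chosen by name, with earlier results of these data known: CARTPT, SST, NPY, VIP, CCK, TAC1, TAC3, CRH, CRHBP and ADCYAP1. Of these 10 genes, 9 were found in a table of 23191 rhesus genes by their Ensembl identifiers, and all 9 had a mean normalized count of 10 or more over the 6 libraries, as did 16595 genes in all. ADCYAP1, which encodes PACAP, was not analysed here.

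The libraries hold polyadenylated RNA from neurons that the labels describe as purified from adult cortex of male rhesus monkeys (Macaca mulatta), 3 to 4 years old. The 3 morphine libraries came from monkeys that received 3 subcutaneous injections daily over 90 days, at 3 mg/kg to begin with and at 15 mg/kg from day 29. The 3 saline libraries came from monkeys injected on the same schedule with 0.5 mL/kg of saline. No strain or genotype is given, and the cortical region is not stated. Depth was 31238653 to 36345095 reads per library, recovered from the normalized counts. The protocol names 2 monkeys per group, so each group has libraries that come from the same animal, and a single code in the descriptions of each group leaves it possible that all 3 do. The p-values below therefore measure the spread between libraries, and treatment and differences between animals cannot be told apart.

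Neuropeptides are cut from larger precursor proteins, packed into dense-core vesicles and released during sustained firing, and they act on G protein-coupled receptors. In the cortex most of them mark classes of neurons. Somatostatin (SST), neuropeptide Y (NPY) and vasoactive intestinal peptide (VIP) are made by inhibitory interneurons, and cholecystokinin (CCK) is made by both interneurons and pyramidal cells. SST cells inhibit the dendrites of pyramidal cells, while VIP cells mainly inhibit other interneurons. CARTPT encodes the CART peptides, first found as transcripts induced by psychostimulants. TAC1 and TAC3 encode tachykinins, among them substance P and neurokinin B. CRH is the main peptide that starts the hormonal stress response, and its binding protein CRHBP sequesters it.

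With morphine 5 of the 9 measured genes rose and 2 fell. CARTPT rose 3.94 fold, NPY 1.70 fold, SST 1.44 fold, TAC1 1.32 fold and CCK 1.15 fold. VIP fell to 0.673 and CRHBP to 0.763 of its saline mean, and CRH and TAC3 did not pass the test. A change was called at a Benjamini-Hochberg adjusted p under 0.05 in limma on log2(normalized count + 1), adjusted over all 16595 genes tested. At that threshold 27.9% of all genes tested were called (12.9% rose and 15.0% fell), and the share was 33.5% among the 11382 genes with a mean of 200 or more, a level that each of the 9 genes exceeded. The 3 morphine values lay wholly above the 3 saline values for 5 of the 9 genes and wholly below them for 2, whereas 48.7% of all genes tested had groups that did not overlap (24.1% higher and 24.6% lower with morphine), and 56.7% of those with a mean of 200 or more. The median log2 fold change of the 9 genes was 0.20, beside 0.01 for all genes tested. Because the genes were chosen with earlier results of these data known, their counts beside these shares are a description and not a test.

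**Figure D1:**
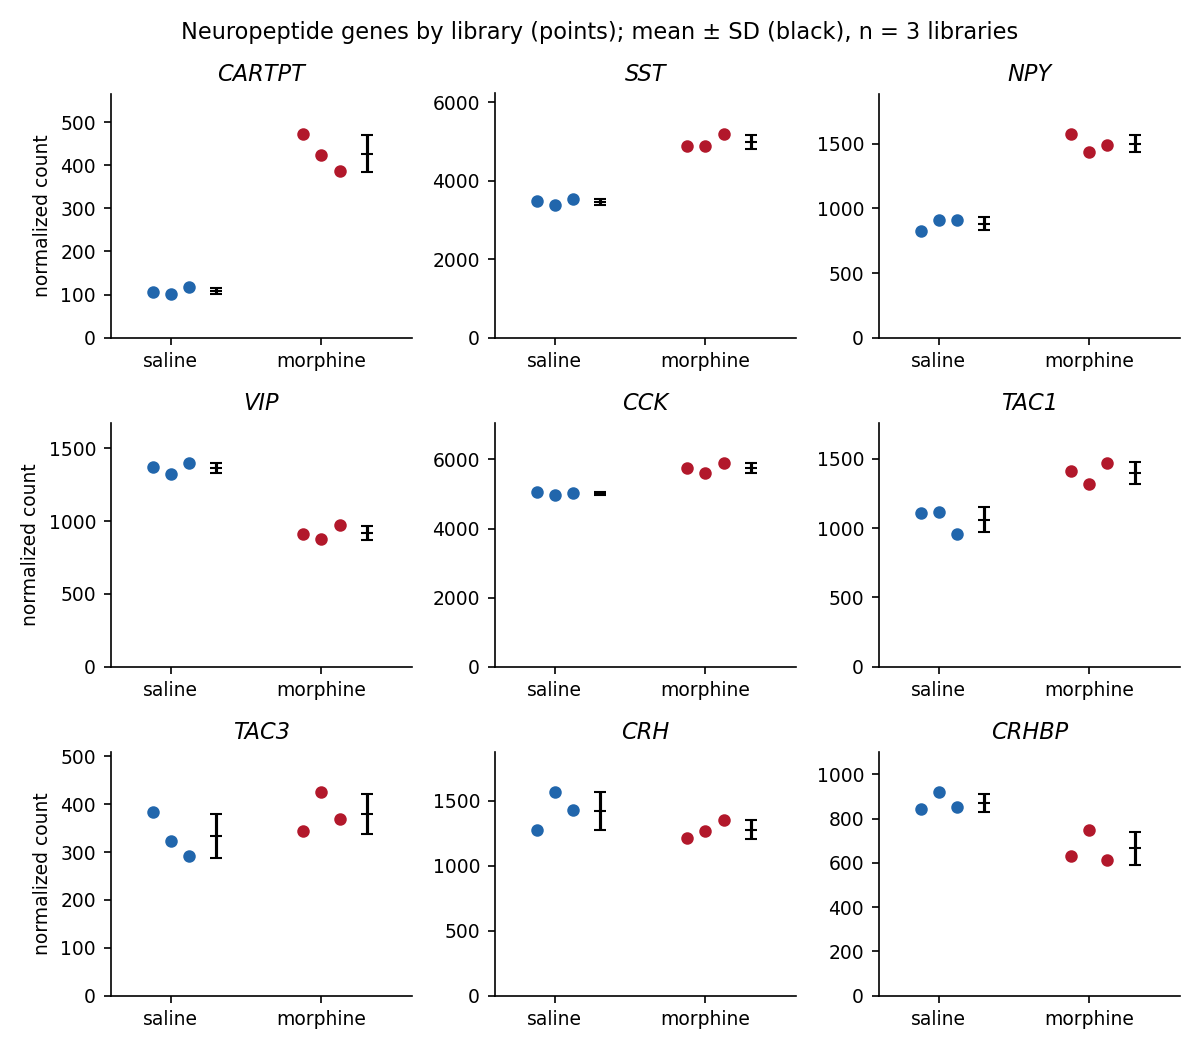
Normalized counts (vertical axis, from 0, a separate scale for each gene) of the 9 neuropeptide genes in each saline library (blue) and morphine library (red), with mean ± SD in black (n = 3 libraries per group). The groups are apart for CARTPT, SST, NPY, VIP, CCK, TAC1 and CRHBP, and overlap for TAC3 and CRH.

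CARTPT (ENSMMUG00000015177) had 472, 423 and 386 normalized counts in morphine libraries 1, 2 and 3 and 106, 102 and 117 in the saline libraries. Every morphine library held more than 3 times the level of any saline library. The saline values rest on 107, 102 and 111 reads recovered from the table, and their coefficient of variation of 7.18% was below the 9.68% that counting alone gives. The mean went from 108.3 ± 7.78 to 427.1 ± 42.9 (SD, n = 3 libraries per group). CARTPT thus rose by 1.97 ± 0.10 (SE) on the log2 scale (limma adjusted p = 0.00151). Among the 16595 genes tested this was the rise of rank 238, and 7.68% of all genes tested changed by 1 or more on the log2 scale in either direction. CARTPT was the only gene of the 9 beyond the 5th to 95th percentile of all log2 fold changes, which ran from -0.80 to 0.96.

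SST and NPY, which overlap in part in the same cortical interneurons, both rose. SST (ENSMMUG00000000850) had 4902, 4892 and 5191 normalized counts in the morphine libraries and 3480, 3382 and 3533 in the saline libraries. The lowest morphine value exceeded the highest saline value by 1359, well beyond the SD of 170 in the morphine and 76.7 in the saline libraries. The log2 fold change was 0.53 ± 0.05 (SE), with a limma adjusted p of 0.00416. NPY (ENSMMUG00000009818) had 1575, 1441 and 1489 normalized counts with morphine and 825, 909 and 910 with saline. Its saline library 1 was the lowest of the 6, and the groups were 530.6 normalized counts apart. The mean went from 881.4 ± 48.9 to 1502 ± 68.0 (SD, n = 3 libraries per group), and the log2 fold change was 0.77 ± 0.07 (SE; limma adjusted p = 0.0034).

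VIP (ENSMMUG00000019074), the peptide of a different interneuron class, went the other way. It had 913, 875 and 969 normalized counts in the morphine libraries and 1373, 1326 and 1397 in the saline libraries. All saline libraries were higher than all morphine libraries, by at least 356.6 normalized counts. VIP fell by 0.57 ± 0.06 (SE) on the log2 scale, with a limma adjusted p of 0.0046. CARTPT, NPY, SST and VIP passed in every one of 18 alternative fits, with ranges of the log2 fold change of 1.89 to 2.04, 0.72 to 0.80, 0.50 to 0.55 and -0.61 to -0.54.

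CCK (ENSMMUG00000001077), the most abundant of the cortical peptides in many species, changed least among the genes that passed. It had 5742, 5622 and 5893 normalized counts with morphine and 5058, 4963 and 5018 with saline. The groups did not overlap, and the spread within them was small, with coefficients of variation of 2.36% and 0.956%. The log2 fold change was 0.20 ± 0.05 (SE), with a 95% interval of 0.08 to 0.32 and a limma adjusted p of 0.0338. A change of this size or larger was common, since CCK stood at the 39.8th percentile of absolute log2 fold changes. Without any single library CCK did not pass (limma adjusted p from 0.0758 to 0.10, over the 6 fits that leave out morphine or saline replicate 1, 2 or 3).

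Of the tachykinin genes, TAC1 rose and TAC3 did not pass. TAC1 (ENSMMUG00000014823), the precursor of substance P and neurokinin A, had 1411, 1317 and 1469 normalized counts with morphine and 1109, 1118 and 957 with saline. Saline library 3 stood below the other saline libraries, and the groups were 199.7 normalized counts apart. The log2 fold change was 0.40 ± 0.09 (SE), with a limma adjusted p of 0.0261. TAC1 passed without saline replicate 3 (log2 fold change 0.33, limma adjusted p = 0.0495) and failed without morphine replicate 1, 2 or 3 and without saline replicate 1 or 2 (limma adjusted p = 0.0779, 0.0543, 0.08, 0.0543 and 0.0523). TAC3 (ENSMMUG00000003203), the precursor of neurokinin B, had 344, 425 and 370 normalized counts with morphine and 383, 324 and 292 with saline. Its groups overlapped, since saline library 1 lay above morphine libraries 1 and 3. The log2 fold change of TAC3 was 0.19 ± 0.13 (SE), with a 95% interval of -0.14 to 0.53 and a limma adjusted p of 0.328.

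CRH and its binding protein were both lower on average with morphine, but only CRHBP passed. CRH (ENSMMUG00000021587) had 1209, 1262 and 1353 normalized counts with morphine and 1272, 1564 and 1425 with saline. The groups overlapped through saline library 1, and the saline SD of 146 was about as large as the difference of the means, 1275 against 1420. The log2 fold change was -0.15 ± 0.10 (SE), with a 95% interval of -0.39 to 0.09 and a limma adjusted p of 0.29. CRHBP (ENSMMUG00000021354), which is made in part by SST interneurons in the cortex, had 631, 749 and 615 normalized counts with morphine and 843, 919 and 853 with saline. Morphine library 2 lay nearest the saline libraries, and the groups stayed 93.7 normalized counts apart. CRHBP fell by 0.39 ± 0.10 (SE) on the log2 scale, with a limma adjusted p of 0.035. It passed without morphine replicate 2 (limma adjusted p = 0.0273) and failed without morphine replicate 1 or 3 and without saline replicate 1, 2 or 3 (limma adjusted p = 0.101, 0.0952, 0.0751, 0.0979 and 0.0808).

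**Figure D2:**
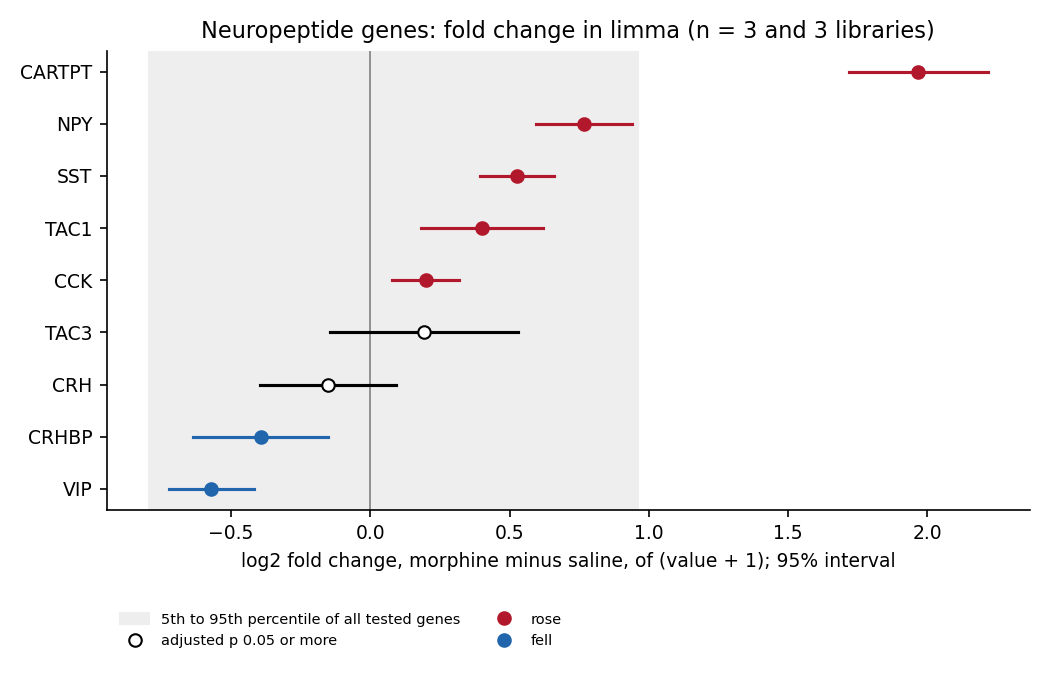
Log2 fold change of (normalized count + 1), morphine minus saline, with the 95% interval from limma (horizontal axis) for the 9 neuropeptide genes, over the 5th to 95th percentile of all genes tested (grey, -0.80 to 0.96). CARTPT at 1.97 lies outside the grey band and the other 8 genes lie inside it.

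Beyond counting error, the libraries of a group differed from each other to an unequal degree. For CRHBP in the morphine libraries the coefficient of variation was 11.0%, where counting alone gives 3.82%, and for CRH in the saline libraries it was 10.3%, where counting gives 2.67%. VIP and CCK in the saline libraries varied by 2.65% and 0.956%, at or below the 2.73% and 1.42% of counting. In the authors' deposited table all 7 genes that rose or fell in limma also had an adjusted p under 0.05, a level that 34.1% of all genes reached there. They passed as well in DESeq2 and in edgeR on recovered reads, where 36.8% and 34.0% of all genes were called. The authors' shorter deposited table, in which the smallest absolute log2 fold change is 0.585, contains CARTPT and NPY of the 9 genes, and SST and VIP fall just short of that size in the authors' deposited table, at 0.53 and -0.57.

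**Figure D3:**
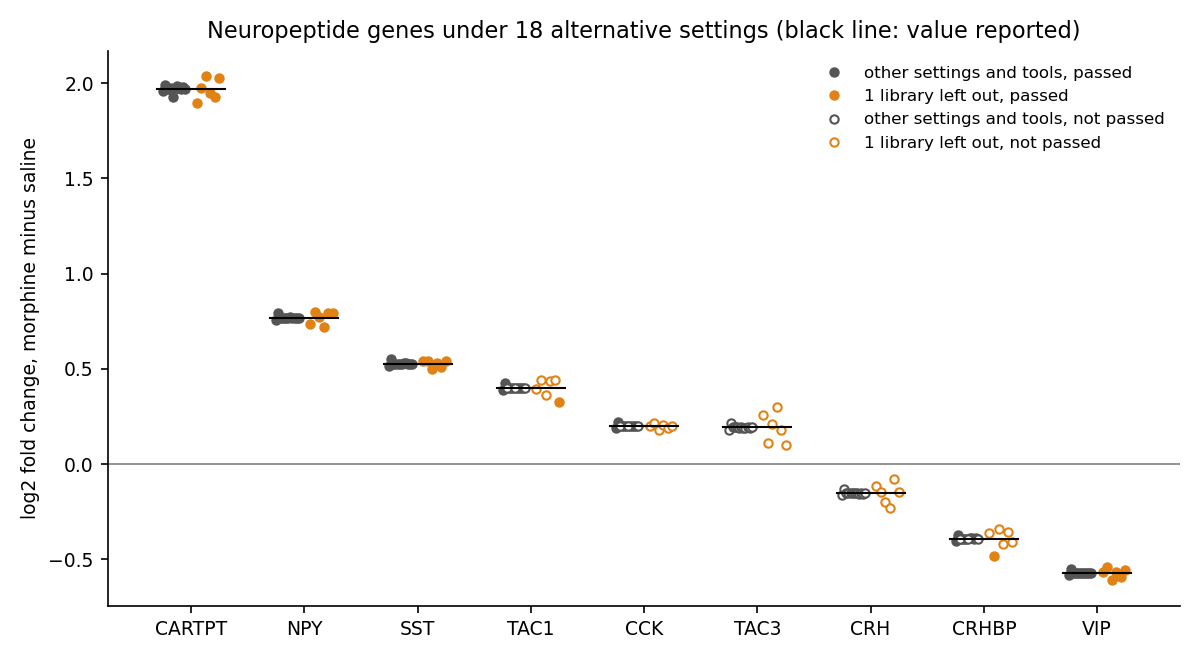
Log2 fold change (vertical axis, morphine minus saline) of each neuropeptide gene in 12 other settings or tools (grey) and in 6 fits that leave out 1 library (orange), filled where the gene passed, with the reported value as a black line. All points of CARTPT, NPY, SST and VIP are filled, TAC1, CCK and CRHBP have filled and open points, and TAC3 and CRH have open points alone.

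To set the peptides beside the inhibitory neurons that make many of them, SST, NPY, VIP, CCK, TAC1, TAC3, CRH and CRHBP were divided by GAD1, which encodes a GABA-synthesizing enzyme, within each library. CARTPT was not among these ratios. Such a ratio of normalized counts does not depend on how libraries were scaled, and because it is not per transcript length it is read here between libraries and not between genes. GAD1 itself did not pass, with means of 10550 ± 491 and 10219 ± 119 normalized counts in morphine and saline libraries (SD, n = 3 libraries per group) and a limma adjusted p of 0.58. The ratio of SST to GAD1 was 0.469, 0.484 and 0.468 in the morphine libraries and 0.339, 0.328 and 0.350 in the saline libraries. The ratio of VIP to GAD1 was 0.0874, 0.0865 and 0.0875 with morphine and 0.134, 0.129 and 0.139 with saline. The morphine libraries thus agreed closely for both ratios, and neither overlapped with saline. On the log2 scale the difference was 0.48 ± 0.03 (SE) for SST, -0.62 ± 0.03 for VIP and 0.72 ± 0.07 for NPY. The groups also did not overlap for the ratios of CCK, TAC1 and CRHBP to GAD1, with log2 differences of 0.15, 0.36 and -0.44, and they overlapped for TAC3 and CRH.

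Peptides were also compared with each other. The ratio of NPY to SST was 0.321, 0.294 and 0.287 in the morphine libraries and 0.237, 0.269 and 0.258 in the saline libraries. NPY was thus higher relative to SST in every morphine library than in any saline library, with a log2 difference of 0.24 ± 0.07 (SE). The ratio of CRHBP to CRH was 0.522, 0.594 and 0.455 with morphine and 0.663, 0.588 and 0.599 with saline, and the groups overlapped. For the 7 of 10 ratios whose groups did not overlap the exact two-sided permutation p was 0.1, the smallest that 3 against 3 libraries can give, and 0.143 after Benjamini-Hochberg adjustment over the 10 ratios. No ratio could therefore pass a threshold of 0.05. GAD1 itself had a log2 fold change of 0.04, so the ratios to GAD1 largely repeat the fold changes of the genes and are not separate evidence. The share of all genes whose ratio to GAD1 did not overlap was not computed. In their own values 48.7% of all genes tested had groups that did not overlap, and 56.7% of those with a mean of 200 or more. With GAD2, the gene of the other GABA-synthesizing enzyme, in place of GAD1 the log2 difference for VIP was -0.40 and for SST 0.70, and that of CRH changed sign to 0.02. GAD2 had a log2 fold change of -0.17 ± 0.05 (SE) and did not pass in limma (adjusted p = 0.0591), but it passed in edgeR and in DESeq2 (adjusted p = 0.0133 and 0.00239).

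**Figure D4:**
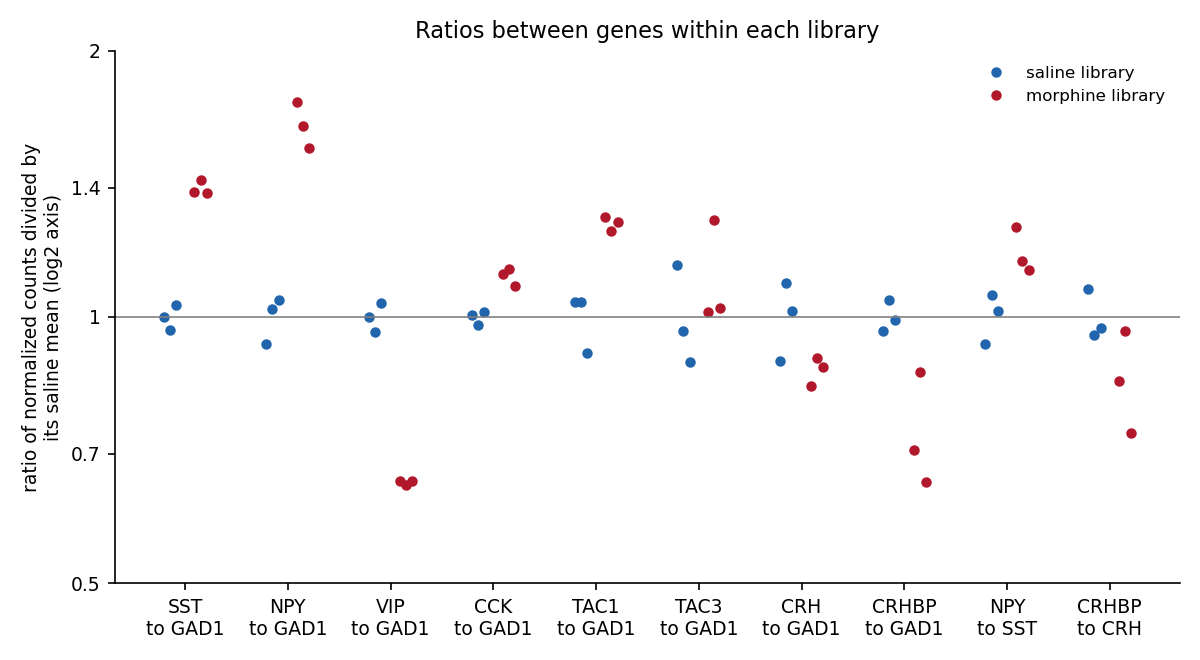
Ratio of normalized counts within each library, divided by the mean of that ratio in the saline libraries (vertical axis, log2 scale), for 8 genes relative to GAD1 and for 2 pairs of genes. Saline libraries are blue and morphine libraries red, and the 7 ratios other than TAC3 to GAD1, CRH to GAD1 and CRHBP to CRH have groups that do not overlap.

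Among the receptors of these peptides VIPR2 and SSTR3 fell and ADCYAP1R1 rose. Of 19 receptor genes listed 14 were measured, so that 3 of 14 were called, near the 27.9% of all genes tested. The groups did not overlap for 7 of the 14 (5 higher and 2 lower with morphine), near the 48.7% of all genes tested. VIPR2 (ENSMMUG00000009611), the VPAC2 receptor for VIP and PACAP, had 15.9, 30.0 and 15.4 normalized counts with morphine and 69.1, 74.2 and 80.1 with saline. It is a low gene, with 15, 33 and 16 reads in the morphine libraries, yet all of these lay below the saline libraries. VIPR2 fell by 1.88 ± 0.27 (SE) on the log2 scale, with a limma adjusted p of 0.00896, and passed without each single library. VIPR1, the VPAC1 receptor, did not pass (log2 fold change 0.17 ± 0.07), while ADCYAP1R1, the PACAP receptor PAC1, went from 6630 ± 188 to 8010 ± 321 normalized counts (SD, n = 3 libraries per group). ADCYAP1R1 rose by 0.27 ± 0.06 (SE) with a limma adjusted p of 0.023, but failed without morphine replicate 1 or 3 and without saline replicate 1 or 3 (limma adjusted p = 0.0705, 0.0709, 0.0677 and 0.0658).

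SSTR3, a somatostatin receptor found on neuronal primary cilia, fell while SST rose. It had 1316, 1406 and 1341 normalized counts with morphine and 1875, 1629 and 1625 with saline, a log2 fold change of -0.33 ± 0.08 (SE) and a limma adjusted p of 0.032. SSTR3 passed in 0 of the 6 fits that leave out 1 library, morphine or saline replicate 1, 2 or 3 (limma adjusted p from 0.0543 to 0.0941). SSTR1, SSTR4 and SSTR5 did not pass, with log2 fold changes of -0.13, 0.89 and 0.46 and 95% intervals that cover 0. The NPY receptors NPY2R and NPY5R did not pass (-0.48 and 0.21), nor did CCKBR, the main CCK receptor of the cortex (-0.12), or the tachykinin receptors TACR1 and TACR2 (0.34 and 0.68). CRHR1, the main CRH receptor of the cortex, had 679, 854 and 1658 normalized counts in the morphine libraries and 1011, 994 and 981 in the saline libraries. Morphine library 3 stood apart for CRHR1, and the 95% interval of its log2 fold change ran from -0.87 to 0.85. CRHR2 did not pass (0.63 ± 0.58). SSTR2, NPY1R, NPY4R, CCKAR and TACR3 were not analysed here.

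**Figure D5:**
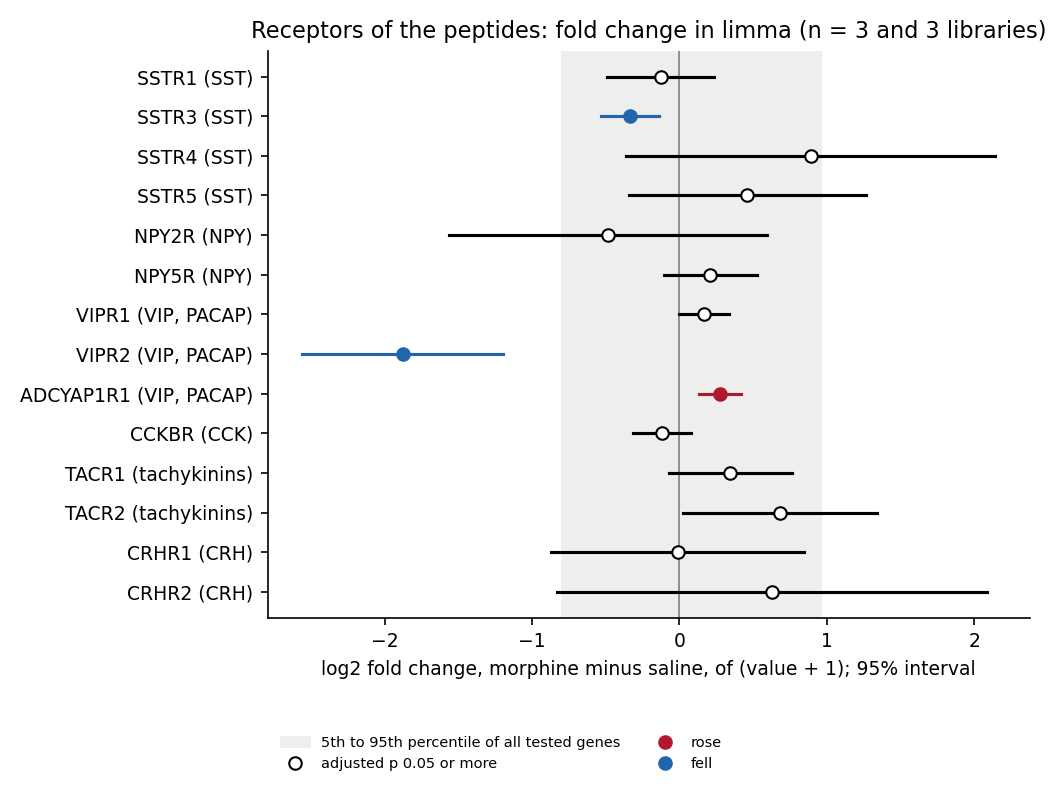
Log2 fold change of (normalized count + 1), morphine minus saline, with the 95% interval from limma (horizontal axis) for 14 receptor genes, ordered by the peptide they bind. VIPR2 at -1.88 lies below the grey band of the 5th to 95th percentile of all genes tested, SSTR3 (fell) and ADCYAP1R1 (rose) lie inside it, and the 11 open points did not pass.

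Other neuropeptide genes outside the opioid family were mostly low in these libraries. Of 37 listed, 24 were in the table and 17 had a mean of 10 or more, of which 2 rose and 1 fell. Over all genes tested 12.9% rose and 15.0% fell, so these calls are no more than the background share. NTS, the precursor of neurotensin, had 28, 33 and 52 reads in the morphine libraries and 0 reads in each saline library. NTS reached the minimum mean of 10 through the morphine libraries alone, and its limma adjusted p of 0.00104 is to be read with that limit. The 0 reads are compatible with up to 3 per library, and the morphine mean of NTS was 12 fold that floor. NPPA, the precursor of atrial natriuretic peptide, fell by 0.92 ± 0.17 (SE) on the log2 scale (limma adjusted p = 0.0164), from 145 ± 16.6 to 76.6 ± 13.9 normalized counts (SD, n = 3 libraries per group). It did not pass without saline replicate 2 (limma adjusted p = 0.0529). NPW, the precursor of neuropeptide W, rose by 0.74 ± 0.19 (SE), with a limma adjusted p of 0.0426 that was between 0.0506 and 0.112 in the 6 fits that leave out morphine or saline replicate 1, 2 or 3. The other 14 did not pass, among them PTHLH (-0.34), UCN (0.17) and NPPC (-0.29).

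Genes of peptide processing moved in both directions. Of 8 measured, 4 fell and 1 rose, where 15.0% and 12.9% of all genes tested fell and rose. All 8 had a mean of 200 or more, a level at which 33.5% of genes were called in either direction. PCSK1, a convertase that cuts precursors at pairs of basic residues, had 2615, 2410 and 2506 normalized counts with morphine and 4405, 3925 and 3981 with saline. PCSK1 fell by 0.71 ± 0.07 (SE) on the log2 scale, with a limma adjusted p of 0.00408. PCSK2, the related convertase, rose by 0.29 ± 0.05 (SE), with 2576 to 2750 normalized counts with morphine and 2143 to 2196 with saline. CPE, which trims the basic residues left after cutting, fell by 0.33, PAM, which amidates the C terminus of peptides such as NPY, VIP, CCK and substance P, by 0.19, and QPCT, which forms N-terminal pyroglutamate, by 0.60. Their limma adjusted p were 0.00866, 0.0472 and 0.0228. PAM did not pass with upper-quartile scaling (limma adjusted p = 0.068) or without any single library, morphine or saline replicate 1, 2 or 3 (0.0622 to 0.129), and QPCT did not without morphine replicate 1, 2 or 3 (limma adjusted p = 0.0654, 0.0618 and 0.0718).

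Among markers of the interneurons that make the peptides, LAMP5 rose and CALB1 fell. Of 22 listed 19 were measured, of which 1 rose and 1 fell in limma (27.9% of all genes tested were called), while 3 rose and 3 fell in DESeq2 (36.8% of all genes). The groups did not overlap for 7 of the 19 (4 higher and 3 lower with morphine), a smaller share than the 48.7% of all genes tested. The median log2 fold change was 0.17, and the summed level, of which GAD1 is the largest part, was 28827 to 30503 normalized counts in the morphine and 28960 to 29556 in the saline libraries. CALB1, the calcium-binding protein calbindin, fell by 0.62 ± 0.07 (SE; limma adjusted p = 0.00575). LAMP5, a marker of neurogliaform cells, rose by 0.42 ± 0.09 (SE; limma adjusted p = 0.0226) but failed without morphine replicate 1 or 3 and without saline replicate 2 or 3 (limma adjusted p = 0.0705, 0.0711, 0.0697 and 0.065). CALB2 (calretinin), found in many VIP cells, had a log2 fold change of 0.32 ± 0.09 (SE, limma adjusted p = 0.0501), in the direction opposite to VIP. ADARB2 and HTR3A, also in the list, had log2 fold changes of -0.50 ± 0.20 and -1.10 ± 0.54 (SE), in the direction of VIP. NR2F2 and PROX1 were at 0.17 and -0.02. ADARB2, HTR3A, NR2F2 and PROX1 did not pass in limma. ADARB2 passed in DESeq2 (adjusted p = 0.0445) but not by the authors' deposited adjusted p (0.068). SLC32A1, the vesicular GABA transporter, and RELN went up, by 0.22 ± 0.08 and 0.23 ± 0.11 (SE) on the log2 scale. They did not pass in limma (adjusted p = 0.0963 and 0.167) and passed in DESeq2 (adjusted p = 0.01 and 0.0298). PVALB, SOX6 and LHX6 did not pass, nor did NOS1 and CHODL, which mark a class of SST cells rich in NPY, at 0.37 ± 0.17 and 0.42 ± 0.28. In these bulk samples fewer cells of a type and less RNA per cell cannot be told apart.

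Some markers of other cells changed between the groups as well, to be read against the 12.9% of all genes tested that rose and the 15.0% that fell, or against 33.5% called in either direction at a mean of 200 or more. Of 12 pan-neuronal markers 7 fell and 2 rose (summed level 220642 to 225173 with morphine, 277644 to 288303 with saline), and among 13 markers of excitatory neurons there were 4 falls and 0 rises (200466 to 201875 and 219149 to 221370). Of 9 astrocyte markers 6 fell and 1 rose (244793 to 247514 and 302179 to 307795), and of 7 microglia markers 4 rose and 2 fell (7724 to 8207 and 5335 to 5683). Oligodendrocyte markers summed to 265811 to 268050 with morphine and 259685 to 264231 with saline, with 3 rises and 2 falls among 7. The 6 markers of oligodendrocyte precursors held 4 rises and 0 falls, and the 10 endothelial and mural markers 2 rises and 4 falls. The libraries labelled as neurons held transcripts that define glia. MBP, a myelin protein, had 201724 to 203413 normalized counts with morphine and 189610 to 195962 with saline. GJA1, the gap junction protein of astrocytes, had 17125 to 17789 with morphine and 32362 to 34935 with saline. GJA1 thus fell by 0.94 ± 0.05 (SE) on the log2 scale (limma adjusted p = 0.00175). The part of these shifts in the changes of the neuropeptide genes was not tested.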

How the data were processed

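Polyadenylated RNA of 6 libraries was measured, 3 per group, grouped by sample title. The members and the gene lists were chosen with earlier results of these data known. The submitters' processing notes list Bowtie2 2.1.0, StringTie, DESeq2 1.18.1 and hg19 without their roles. The gene identifiers are rhesus, so the counting build remains unclear, and those sources do not state whether strand was used. Effects of antisense or overlapping genes on the counts can therefore not be told apart.

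Per the file headers and values, the authors deposited a signal per library, namely read counts divided by a size factor. The authors also deposited log2 fold changes with standard errors, a test score, and p-values with their adjusted values, in a table of 23191 genes and a shorter one of 2332. All value columns were mapped to samples. Dividing by the smallest value above 0 made 100% of the values of every library whole to within 0.001, and gave recovered depths of 31238653 to 36345095 reads. On these reads DESeq2 1.42.0 called 6105 genes and edgeR 4.0.16 called 5636. Intervals and floors from reads cover counting error only.

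Groups were compared by limma 3.58.1 (R 4.3.3) on log2(value + 1), with group as the only term, two-sided, for 16595 genes with a mean of 10 or more. This scale understates changes of low genes. Symbols came from a table that matched 15436 identifiers (66.6%). Pairs of libraries of a group differed by more than sampling noise (median chi-square 2.6 to 3.19 per gene). On simulated data for this comparison, with 16595 genes, limma recovered 3% of 1.5-fold and 66% of 2-fold changes with 3 false calls, and edgeR 24% and 84% with 7. The simulation gave every gene the same spread (edgeR common biological coefficient of variation 0.16) and changed only a small part of the genes. These shares therefore do not hold for genes with less spread, such as SST, with coefficients of variation of 3.4% in the morphine and 2.21% in the saline libraries. All 10 members were named, together with every called receptor, other neuropeptide, processing gene and interneuron marker, and GAD1; other genes of these lists that are given without having passed, and the background at a mean of 200, were chosen after values were seen. Alternatives were other scalings (TMM, upper quartile), filters, pseudocounts of 0.5 and 5, a replicate block, an intensity trend, DESeq2, edgeR, the authors' adjusted p, a threshold of 0.01, each library left out, and GAD2 for GAD1. No transcript lengths or sequences were used here, so levels were not ranked between genes. Plots used matplotlib 3.10.9 (Python 3.11.15).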

Additional observations from a re-analysis of the deposited data

How the results depend on the processing

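CARTPT, NPY, SST and VIP kept their direction and their side of the threshold in all 18 alternatives, and CRH and TAC3 passed in none (adjusted p from 0.134 to 0.558 and from 0.154 to 0.61). No fold change of the 9 genes changed sign. The counts of neuropeptide genes that rose and fell were 5 and 2, and they were 3 and 1 without a filter on low values, with the replicate block and at an adjusted p under 0.01, since CCK, TAC1 and CRHBP then failed. Without 1 library 3 to 4 rose and 1 to 2 fell. More genes are tested without the filter, and fewer libraries enter when 1 is left out. At 0.01 the fit and its adjusted p are the same and only the threshold differs. The replicate block left the log2 fold changes of the 9 genes unchanged. It adds terms to the model, so fewer degrees of freedom remain for the spread. The cause of any other difference was not tested.

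For receptors, the counts went from 1 rise and 2 falls to 0 and 1 without the filter, with the replicate block and at 0.01, to 1 fall with a minimum mean of 50, which removes VIPR2, and to 0 to 1 rises and 1 fall (lowest and highest 1) without 1 library. For other neuropeptides, rises went from 2 to 1 with a minimum mean of 50, with the block, with the authors' adjusted p and at 0.01, falls from 1 to 0 with the block and at 0.01, and without 1 library 1 to 3 rose and 0 to 2 fell. For processing genes, rises went from 1 to 0 with the block and at 0.01, to 3 in DESeq2 and to 2 with the authors' adjusted p, and falls went from 4 to 1 with the block, to 2 at 0.01, to 3 with upper-quartile scaling and without the filter, and to between 2 and 3 without 1 library. For interneuron markers, rises went from 1 to 0 without the filter, with the block, at 0.01 and in some fits without 1 library (0 to 1), to 2 with upper-quartile scaling, a minimum mean of 50, a pseudocount of 5, edgeR and the intensity trend, and to 3 in DESeq2 and with the authors' adjusted p. Their falls went from 1 to 2 with TMM scaling, a minimum mean of 50, edgeR, the trend and the authors' adjusted p, and to 3 in DESeq2.

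Over all genes, the count of calls went from 4631 to 1577 with the replicate block, 1532 at 0.01, 2993 without the filter, and 2536 to 3181 without 1 library. Same-numbered libraries did not deviate together (r = -0.056, -0.004 and -0.028 across genes), so the replicate numbers give no pairing. The median log2 fold change of all genes was 0.01 as deposited, -0.004 with TMM and 0.03 with upper-quartile scaling. Of the ratios, that of CRH to GAD1 reversed from -0.20 to 0.02 with GAD2 as reference, and no ratio changed sign without 1 library. The low counts of VIPR2 and NTS limit the precision of their values.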
